A study of Mus musculus with 96 samples.

Results

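Transcripts of 31 genes that encode ribosome biogenesis factors, most of them proteins of the nucleolus, were described in single cells of mouse bone marrow. The genes were chosen by name, with earlier results of these data known, from the 24321 gene symbols of the expression table. All 31 were found there. They comprised 7 subunits or factors of RNA polymerase I, 4 proteins of box C/D small nucleolar ribonucleoproteins (snoRNPs), 4 proteins of box H/ACA snoRNPs, 3 abundant nucleolar proteins, 10 assembly factors of the large subunit, 1 of the small subunit and 2 factors of late large-subunit maturation. The last of these, Eif6 and Sbds, complete their work in the cytoplasm.

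The 96 cells came from marrow of C57BL/6 mice of genotype Rpl11 +/lox, in which 1 copy of the gene for this large-subunit ribosomal protein is the lox allele. The labels call all cells erythroid precursors, and the series text names a range that starts at the burst-forming unit, an early red cell progenitor, and ends at the basophilic erythroblast. All cells shared 1 genotype, and the number of animals, the agent that recombines the lox allele and a wild-type group are not described in the labels used here. The cells therefore counted as 1 sample, no test was made, and each SD is over cells. Each cell was its own library, captured on a microfluidic chip and amplified by SMART-Seq. Values are RPKM, a read number divided by transcript length in kilobases and by mapped reads in units of 1000000, and a gene was detected in a cell at 1 RPKM or more.

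Ribosome production starts in the nucleolus, where RNA polymerase I transcribes ribosomal DNA. Guided by small nucleolar RNAs, the box C/D and box H/ACA snoRNPs methylate and pseudouridylate the transcript, while assembly factors load the ribosomal proteins and fold each subunit. Erythroid progenitors divide and make protein at a high rate, nucleoli disappear as erythroblasts mature, and loss of a copy of a ribosomal protein gene such as RPL11 causes Diamond-Blackfan anaemia in humans.

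Promoter sequences are shown for 3 members whose transcripts behaved differently in these cells. Nhp2 was among the most abundant members in cells with little globin and nearly undetected in cells full of globin, Nip7 remained detectable in most of the latter, and Rrn3 was rarely detected anywhere. Each sequence is from RefSeq, build GRCm38.p6, and runs from 250 bases before the annotated start to 50 bases after it. The windows are chr11:51619523-51619822 for Nhp2, chr8:107056627-107056926 for Nip7 and chr16:13780449-13780748 for Rrn3, all on the + strand. Capitals mark CACGTG, the E-box letters bound by MYC with MAX, and CCGGAAGT, letters bound by ETS-family factors, on either strand.
Nhp2: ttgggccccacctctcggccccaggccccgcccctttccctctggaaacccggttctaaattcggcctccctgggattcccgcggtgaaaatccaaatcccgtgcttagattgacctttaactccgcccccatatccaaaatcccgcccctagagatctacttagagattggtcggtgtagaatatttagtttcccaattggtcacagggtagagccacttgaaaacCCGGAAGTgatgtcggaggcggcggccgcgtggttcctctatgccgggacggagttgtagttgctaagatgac
Nip7: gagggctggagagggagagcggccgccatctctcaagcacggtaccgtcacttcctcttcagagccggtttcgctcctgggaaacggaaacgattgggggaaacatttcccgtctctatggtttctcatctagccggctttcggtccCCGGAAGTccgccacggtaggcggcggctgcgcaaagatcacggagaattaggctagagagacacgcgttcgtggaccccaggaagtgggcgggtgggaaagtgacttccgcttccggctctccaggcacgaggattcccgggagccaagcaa
Rrn3: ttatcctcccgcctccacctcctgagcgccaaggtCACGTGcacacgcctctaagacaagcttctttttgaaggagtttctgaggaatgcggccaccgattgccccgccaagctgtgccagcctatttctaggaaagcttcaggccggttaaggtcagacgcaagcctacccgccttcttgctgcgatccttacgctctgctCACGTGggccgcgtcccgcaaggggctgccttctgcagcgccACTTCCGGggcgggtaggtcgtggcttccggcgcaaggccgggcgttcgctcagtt

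The Nhp2 and Nip7 windows each hold CCGGAAGT once, starting 23 and 103 bases before the annotated start. Rrn3 holds CACGTG at 2 places and the ETS letters on the opposite strand. Of the 31 members, 25 had a RefSeq window, and CCGGAAGT on either strand was in 7 of them (28.0%), namely Ebna1bp2, Gar1, Nhp2, Nip7, Polr1c, Polr1e and Rrn3. The share was 30.6% of 85 other biogenesis genes, 18.8% of 64 cytoplasmic ribosomal protein genes and 4.31% of all 27025 symbols. CACGTG was in 3 members (12.0%), namely Nop2, Pes1 and Rrn3, against 23.5% of the other biogenesis genes, 9.38% of the ribosomal protein genes and 8.09% of all symbols. The motifs cannot overlap each other, and a match describes letters, not a bound site.

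At least 1000 genes were detected in 69 of the 96 cells, and these were described in classes by their level of Hba-a1, an alpha-globin gene that marks erythroblast maturation. Of these cells, 37 were globin-rich, with Hba-a1 at 300000 RPKM or more, and 11 were mid-globin, between 100000 and 300000 RPKM. A further 6, called low-globin erythroid cells, were under 100000 RPKM but listed Klf1 and Gata1, the erythroid transcription factors, at 10 RPKM or more. The cells next to the limits had Hba-a1 at 76269 and 129407 RPKM, and at 270948 and 307302 RPKM. Another 10 cells carried a non-erythroid marker set, and 5 had little globin and lacked Klf1 or Gata1 at 10 RPKM. None of the 31 members was used to make the classes.

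The classes were checked against marker lists, although the rule itself set apart cells with a non-erythroid set and asked for Klf1 and Gata1 in the low-globin cells, so the check is partly built in. In the low-globin erythroid cells, 19 of 20 erythroblast markers and 10 of 10 late progenitor markers were detected in at least 50% of cells, against 1 of 10 early or multipotent markers. Their neutrophil markers were at 0 in every cell for 10 of 12 genes, and the summed neutrophil level was at most 0.216 RPKM. In the 10 other-lineage cells that sum ran from 5.86 to 79767 RPKM with a median of 20220, Gata1 was listed at 0 in all, and Klf1 was listed above 0 in 1. Depth, estimated from the steps between low values, had medians of 4855, 6837 and 7511 in units of 1000 reads in low-globin, mid-globin and globin-rich cells. A count of 3 reads on a transcript of 1 kilobase then equals a median of 0.619, 0.439 and 0.399 RPKM.

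The biogenesis transcripts were most abundant in the low-globin erythroid cells and least abundant in the globin-rich cells. The number of the 31 members detected per cell was 18 at the lowest, 22.5 at the median and 29 at the highest in low-globin cells, 8, 13 and 18 in mid-globin cells, and 0, 3 and 10 in globin-rich cells. The mean log2(RPKM + 1) over the 31 genes was 4.65 ± 0.89 (SD, n = 6 cells), 2.17 ± 0.65 (n = 11) and 0.50 ± 0.35 (n = 37). Its lowest low-globin value, 3.59, lay above the highest mid-globin value, 3.27, whereas mid-globin and globin-rich cells overlapped between 1.24 and 1.66. Of the 31 transcripts, 6 reached detection in 50% or more of the 69 cells, namely Ncl, Npm1, Nop56, Polr1d, Nip7 and Sbds. By class, 15 were detected in every low-globin cell, 2 in every mid-globin cell and 0 in every globin-rich cell. With 6, 11 and 37 cells, detection in every cell is harder to reach in the larger classes. The share of all genes that met either rule is not given here, so these counts have no background beside them.

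**Figure D1:**
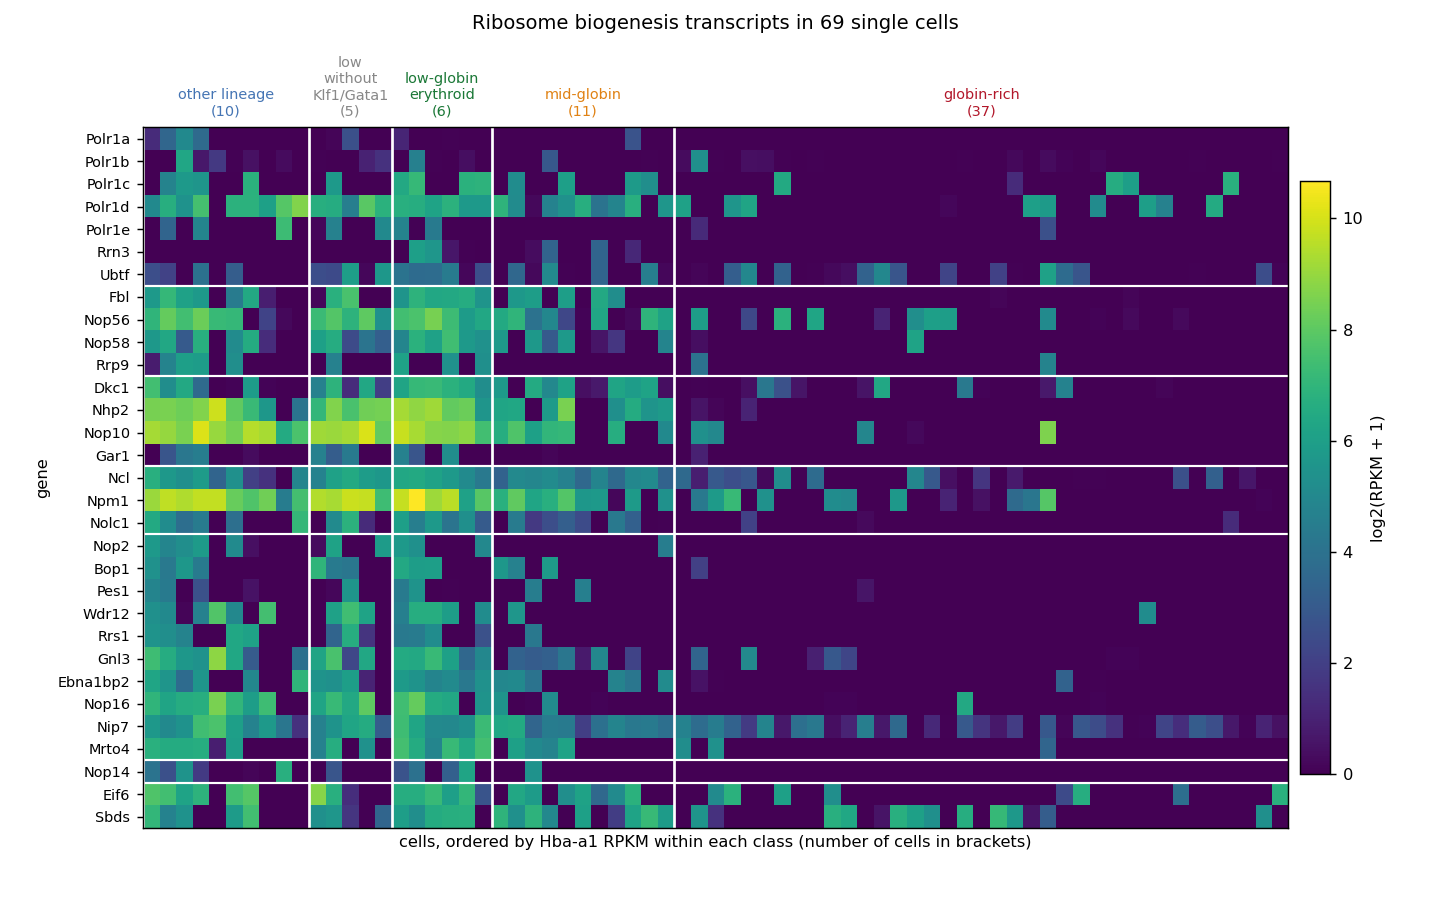
Level of each of the 31 transcripts (rows, grouped by role between white lines) in each of the 69 cells (columns), as log2(RPKM + 1), with cells grouped by class and ordered by Hba-a1 within it. The globin-rich block is dark for most genes apart from Nip7, Ncl, Npm1, Sbds and Ubtf, and the low-globin erythroid block is bright for all but a few genes such as Polr1a, Polr1b and Pes1.

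The number of genes detected moved with the classes as well, with medians of 4595, 3016 and 1551. Relative to that number, the members took a smaller part in the classes with more globin. Per 1000 genes detected, 5.15 ± 0.34 were members in low-globin cells, 4.09 ± 0.77 in mid-globin cells and 2.08 ± 1.03 in globin-rich cells. The 27 cells left out for few detected genes had 4.24 ± 3.39, with a median Hba-a1 of 150695 RPKM. In low-globin, mid-globin and globin-rich cells, globin took a median of 13.3%, 63.7% and 88.2% of the summed RPKM. A lower content of these transcripts and a lower capture of RNA from the same cells cannot be told apart.

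**Figure D2:**
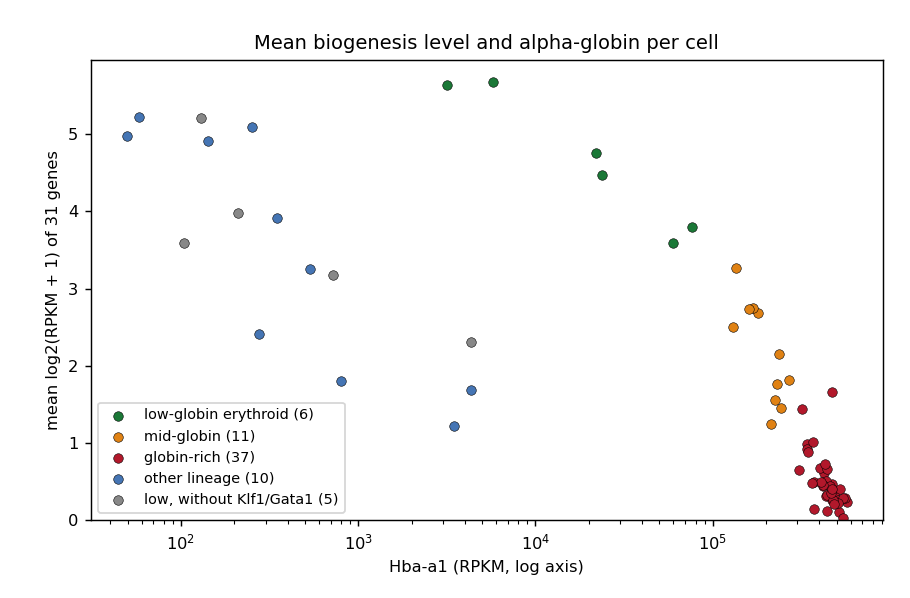
Mean log2(RPKM + 1) of the 31 genes in each cell (vertical axis) against its Hba-a1 level in RPKM (horizontal, log axis), with each of the 69 cells as a point coloured by class. The erythroid points run from upper left to lower right, spanning means of 5.68 to 0.025 and Hba-a1 levels of 3163 to 570277 RPKM.

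Among the members, the subunits specific to RNA polymerase I were rarely detected, also in the low-globin cells where most members were found. Polr1a, its largest subunit, was detected in 1 of 6 low-globin cells, 1 of 11 mid-globin cells and 0 of 37 globin-rich cells, where 0 of 37 allows a share of up to 8.11%. Polr1b, the other catalytic subunit, was detected in 1, 1 and 1 of these cells and Polr1e in 2, 0 and 2. Rrn3, the factor that brings the polymerase to its promoter, was detected in 2, 3 and 0. These genes had medians between 0 and 0.293 RPKM in low-globin cells. They did not reach the level used to define measured genes, 1 RPKM in at least 10 of the 69 cells. That level was reached by 25 of the 31 members and 5855 genes in all. Outside the members, Twistnb, Cd3eap and Znrd1, also subunits specific to this polymerase, were found in 83.3%, 66.7% and 50% of low-globin cells. Their medians there were 25.8, 3.92 and 11.0 RPKM, and in globin-rich cells they were found in 13.5%, 0% and 2.70%.

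The member subunits that RNA polymerase I shares with RNA polymerase III were detected more often than Polr1a, Polr1b and Polr1e. Polr1d had a lowest, median and highest level of 51.7, 85.3 and 116 RPKM in low-globin cells, 0, 34.9 and 123 RPKM in mid-globin cells and 0, 0 and 92.2 RPKM in globin-rich cells. It was thus present in 6 of 6, 9 of 11 and 9 of 37 cells, with overlapping ranges. Polr1c was found in 4 of 6, 4 of 11 and 5 of 37 cells. Ubtf, which binds and opens ribosomal DNA, was found in 5 of 6, 4 of 11 and 12 of 37, and its mean log2 level in mid-globin cells was only 0.39 above that in globin-rich cells (1.55 ± 2.11 and 1.16 ± 1.78).

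The core proteins of box C/D snoRNPs were present in every low-globin cell. Fbl, the methyltransferase, ran from 45.1 to 118 RPKM there with a median of 85.3. It ran from 0 to 85.6 RPKM with a median of 0 in mid-globin cells, 5 of 11 of which detected it, and reached at most 0.109 RPKM in the 37 globin-rich cells. Low-globin and globin-rich cells did not overlap for Fbl, and its mean log2 levels were 6.24 ± 0.57, 2.67 ± 3.08 and 0.0078 ± 0.033.

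Nop56 and Nop58, scaffold proteins of the same particle, had low-globin medians of 166 and 60.4 RPKM and mid-globin medians of 29.3 and 2.20 RPKM. They were detected in 9 and 1 of the 37 globin-rich cells. Rrp9, which is specific to the U3 particle that directs early cleavage, was sparser, at 3 of 6, 0 of 11 and 2 of 37 cells. Nop56 overlaps Idh3b, a mitochondrial enzyme gene, in the RefSeq annotation. Idh3b had medians of 149, 66.1 and 0 RPKM in the same classes, and the part of shared reads in the Nop56 values was not tested.

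The box H/ACA proteins, which also belong to telomerase, gave the largest median difference of all roles between low-globin and globin-rich cells. Nhp2 ran from 46.8 to 603 RPKM in low-globin cells with a median of 395, and from 0 to 368 RPKM in mid-globin cells with a median of 56.1. In globin-rich cells it was at most 1.11 RPKM and was detected in 1 of 37. Its mean log2 level in globin-rich cells was 8.16 below that in low-globin cells (0.048 ± 0.20 and 8.21 ± 1.37), and those classes did not overlap.

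Nop10 had a lowest, median and highest level of 172, 443 and 872 RPKM in low-globin cells and 0, 65.1 and 211 RPKM in mid-globin cells. In globin-rich cells it was detected in 4 of 37, 1 of which reached 387 RPKM, so the ranges overlapped although the difference of mean log2 levels from low-globin cells was 8.14. Dkc1, the pseudouridine synthase, was found in 6 of 6, 7 of 11 and 5 of 37 cells, with medians of 99.5, 53.3 and 0 RPKM. Its overlapping neighbour Mpp1, a gene for an erythrocyte membrane protein, had its higher median in mid-globin cells, 110 RPKM against 66.7 RPKM in low-globin cells. Gar1 was found in 3 of 6, 0 of 11 and 0 of 37 cells.

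Among the abundant nucleolar proteins, Npm1 (nucleophosmin, a chaperone of the nucleolus) had the highest median of all members in low-globin cells. It ran from 68.5 to 1628 RPKM there with a median of 651, from 0 to 265 RPKM in mid-globin cells with a median of 55.6, and from 0 to 231 RPKM in globin-rich cells with a median of 0. The ranges overlapped, and 11 of 37 globin-rich cells detected it. How reads shared with its processed pseudogenes were counted is not given in the sources used here, so its level is uncertain.

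Ncl (nucleolin, which binds nascent ribosomal RNA) was detected in all low-globin and all mid-globin cells. Its lowest, median and highest levels were 18.9, 61.5 and 87.6 RPKM in low-globin cells, 9.18, 27.3 and 34.4 RPKM in mid-globin cells and 0, 0.030 and 36.4 RPKM in globin-rich cells. The step between low-globin and mid-globin cells was 1.29 on the mean log2 scale, and that between mid-globin and globin-rich cells was 3.34. Nolc1, a chaperone of snoRNPs, was found in 6 of 6, 7 of 11 and 2 of 37 cells.

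Of the 5 largest differences between low-globin and mid-globin cells, 4 were those of large-subunit assembly factors, and the other was that of Nop10 (4.58). That role holds 10 of the 31 members, and its median difference was 2.48, near the 2.50 over all members. The medians were 3.36 for box C/D, 3.11 for box H/ACA and 2.80 for the abundant nucleolar proteins. Those of the remaining roles were lower, at 2.20 for small-subunit assembly, 1.54 for RNA polymerase I and 1.52 for late maturation. Mrto4, which holds the place of the ribosomal stalk, ran from 28.2 to 178 RPKM in low-globin cells with a median of 120. It ran from 0 to 71.1 RPKM with a median of 0 in mid-globin cells, and the mean log2 levels differed by 4.67 (6.68 ± 0.99 and 2.01 ± 2.81).

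Nop16, a nucleolar factor of the large subunit, ran from 0 to 279 RPKM with a median of 87.8 in low-globin cells and from 0 to 43.2 RPKM with a median of 0 in mid-globin cells, a difference of 4.67. Wdr12 had medians of 47.6 and 0 RPKM and differed by 4.33, although 1 low-globin cell listed it at 0. Gnl3 (nucleostemin, a nucleolar GTPase) had medians of 76.4 and 3.48 RPKM and differed by 3.81. In each of these 4 genes the ranges of low-globin and mid-globin cells overlapped.

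Bop1 and Pes1, the partners of Wdr12 in a complex needed for large-subunit processing, were detected in 3 and 2 of 6 low-globin cells, 3 and 2 of 11 mid-globin cells and 1 and 0 of 37 globin-rich cells. Nop2, a methyltransferase of ribosomal RNA, was detected in 3, 1 and 0 of these cells. Rrs1, which helps to load the particle that holds Rpl5 and Rpl11, was detected in 4, 1 and 0. Ebna1bp2, a further assembly factor, had low-globin levels of 18.3 to 56.0 RPKM, was detected in 6 of 11 mid-globin cells and in 1 of 37 globin-rich cells.

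Nip7 stood apart from the other assembly factors in globin-rich cells. Every low-globin and mid-globin cell had it, as did 24 of 37 globin-rich cells, the last being 64.9% (exact 95% interval 47.5% to 79.8%), and was the only member found in at least 50% of globin-rich cells. Its levels there were low, however, with a median of 2.01 RPKM and a highest value of 27.1 RPKM, against 30.2, 57.2 and 162 RPKM as the lowest, median and highest in low-globin cells. At 10 RPKM or more it was found in 8 of 37. No annotated gene overlaps Nip7 in RefSeq. However, Nip7 was also detected in 15 of the 27 cells left out for few detected genes. The next member there, Nop10, was detected in 5 of 27. Frequent detection of Nip7 was thus not particular to globin-rich cells, and its source was not tested.

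Nop14, of the small-subunit processome, was found in 4 of 6, 1 of 11 and 0 of 37 cells. Eif6, which keeps the large subunit from joining too early, was found in 6 of 6, 7 of 11 and 8 of 37. Sbds, which helps to remove Eif6, had medians of 78.1, 56.3 and 0 RPKM. Sbds differed by only 0.53 on the mean log2 scale between low-globin and mid-globin cells (5.20 ± 2.61 and 4.67 ± 2.72). It was detected in 12 of 37 globin-rich cells, as often as Ubtf.

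**Figure D3:**
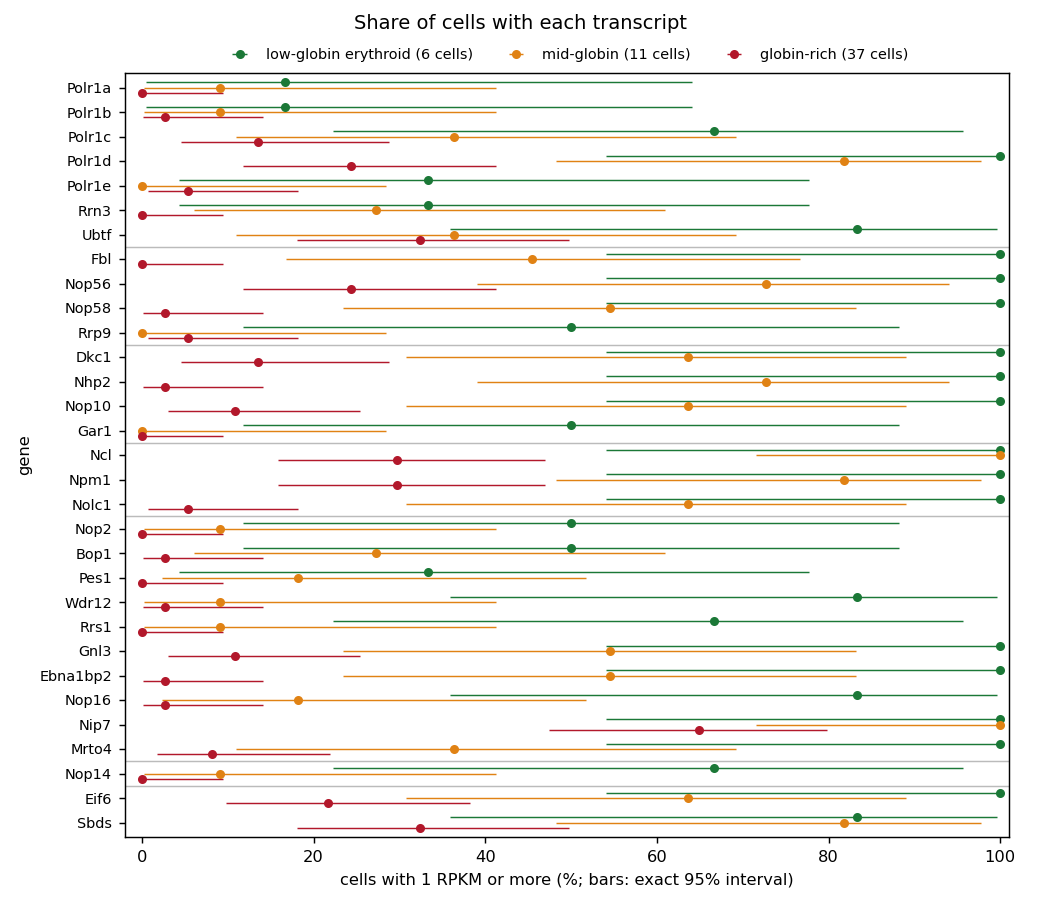
Percentage of cells with each transcript at 1 RPKM or more (horizontal axis) for the 31 genes (rows, grouped by role), with points for the 3 erythroid classes and bars for exact Clopper-Pearson 95% intervals, which cover counting error only. Nip7 is the only gene above 50% in globin-rich cells (64.9%), and Polr1a, Polr1b and Polr1e lie at or below 33.3% in each class.

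Between low-globin and mid-globin cells the biogenesis transcripts differed more than the ribosomal protein transcripts did. A difference of at least 1 in mean log2(RPKM + 1) was counted. By that measure 27 of 31 members were higher in low-globin cells and 0 lower, beside 44.1% and 5.79% of all 5855 measured genes. Among the 25 members that were measured genes, 24 were higher. Counts and medians of members take all 31 unless the 25 are named. The median difference over the 31 members was 2.50, against 0.83 over all measured genes, 1.59 over 99 other biogenesis genes and 0.79 over 85 cytoplasmic ribosomal protein genes. The 4 members within 1 of each other were Polr1a, Polr1b, Pes1 and Sbds. Of the ribosomal protein genes 21 of 85 were higher by at least 1, a count that moved with the scaling of cells.

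Between mid-globin and globin-rich cells the ribosomal protein transcripts differed more than the biogenesis transcripts did. The median difference was 1.58 over the members, 1.08 over all measured genes, 1.08 over the other biogenesis genes and 4.29 over the ribosomal protein genes. Of the members 18 of 31 were higher by at least 1 in mid-globin cells and 0 lower. All 18 were among the 25 measured members, beside 52.4% higher and 0.803% lower of all measured genes. The median over those 25 was 2.31, and the excess was not tested. The largest differences were those of Nhp2 (4.52), Npm1 (3.80), Nop10 (3.56), Ncl (3.34) and Dkc1 (3.26), 3 of them box H/ACA proteins. Ribosomal protein transcripts had a mean log2 level of 9.29 ± 0.16, 8.51 ± 0.39 and 4.39 ± 2.07 in the 3 classes, and 81 of 85 were higher by at least 1 in mid-globin than in globin-rich cells. They stood far above the members in level, and the part of level in the unequal steps was not tested.

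**Figure D4:**
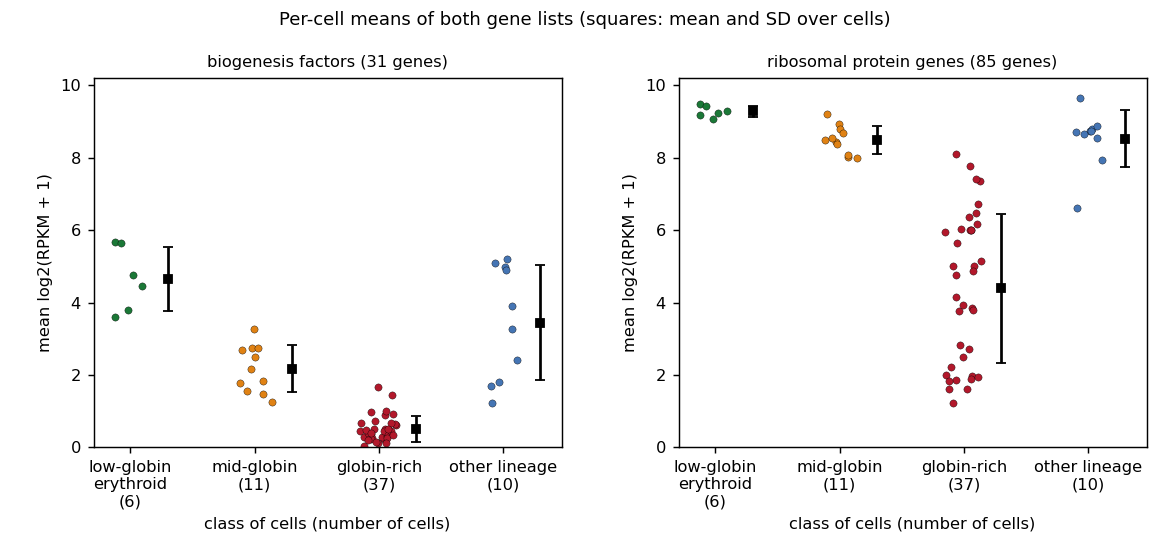
Mean log2(RPKM + 1) per cell of the 31 biogenesis genes (left) and of 85 cytoplasmic ribosomal protein genes (right) in 4 classes, with a point for each cell and squares with bars for the mean and SD over cells. The left panel steps down from 4.65 to 2.17 between low-globin and mid-globin cells, whereas the right panel stays at 9.29 and 8.51 and then spreads between 1.22 and 8.10 in globin-rich cells.

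Scaling moved these differences, and in the first step the members kept the largest of the 3 medians under each scaling tried. With every cell rescaled to a total of 1000000, the low-globin minus mid-globin median was 2.92 for the members, 1.65 for the ribosomal protein genes and 1.39 for all measured genes, of which 61.8% were then higher by at least 1. With globin genes removed before rescaling it was 2.57, 0.48 and 0.74. The excess of the members over all measured genes was 1.67 as deposited, 1.54 rescaled and 1.83 without globin. That of the ribosomal protein genes changed sign, at -0.04, 0.26 and -0.26, and the number of them higher by at least 1 was 21, 81 and 5. With the gene minimum lowered to 500 per cell, the ribosomal protein median was 2.26, with 76 of 85 higher by at least 1, and that of the members 2.80. With the minimum raised to 2000, which left 7 globin-rich cells, the second step was 1.14 for the members and 1.56 for the ribosomal protein genes.

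Over the whole span from low-globin to globin-rich cells 29 of 31 members were higher by at least 1 in low-globin cells and 0 lower, beside 72.4% and 2.36% of all measured genes. The median difference was 4.63 over the members, 2.91 over the other biogenesis genes, 5.18 over the ribosomal protein genes and 2.18 over all measured genes. The largest were Nhp2 (8.16), Nop10 (8.14), Npm1 (7.33), Mrto4 (6.29) and Fbl (6.23). By role, the medians were 6.99 for box H/ACA, 5.92 for box C/D, 4.71 for the abundant nucleolar proteins, 4.39 for large-subunit assembly, 4.14 for late maturation and 1.96 for RNA polymerase I. The 2 members that differed by less than 1 were Polr1a and Polr1b. In 5 members, Nhp2, Fbl, Ebna1bp2, Nolc1 and Nip7, the 2 classes of cells did not overlap, beside 4.59% of all measured genes whose lowest low-globin value lay above the highest globin-rich value.

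The sample descriptions carry 3 codes, while the titles give 1 code to all cells. Of the 3, 2 differ only in a final digit, and whether they name separate runs is not stated. Mid-globin minus globin-rich cells gave a median over the members of 1.23 under the code with 5 and 8 such cells, near the 1.12 of all measured genes there. Under the code with 4 and 20 the medians were 1.69 and 1.16, and these are the similar codes. Under the remaining code, low-globin minus globin-rich cells gave 3.95 over the members and 1.81 over all measured genes, from 3 and 9 cells. There 25 of 31 members were higher by at least 1, beside 64.9% of all measured genes. No code held 3 cells of both low-globin and mid-globin classes, so that comparison was not available within a code.

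In the erythroid cells the member mean varied with globin level and with the number of genes detected. Over 54 cells, Spearman's rho of the member mean was -0.90 with Hba-a1, 0.91 with the number of genes detected, 0.84 with the ribosomal protein mean and -0.38 with estimated depth. Within the 37 globin-rich cells the first 3 values were -0.71, 0.75 and 0.52, and that with depth was -0.09. Among 18 members the 153 pairs had a median rho of 0.50 over the 54 cells, from 0.018 to 0.81. These are descriptions: values in a cell share its library, its depth and its globin content.

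The genes outside the lists whose levels were most like the member mean, by Spearman's rho over the 59 cells without an other-lineage marker set, were Ndufa4 (0.87), Sdhd (0.86), Gm15772 (0.86), Gm6981 (0.86) and Gapdh (0.86). The median over 5624 genes compared was 0.43. Ndufa4 and Sdhd encode mitochondrial respiratory proteins and Gapdh a glycolytic enzyme. Sdhd had medians of 451, 233 and 0 RPKM in low-globin, mid-globin and globin-rich cells.

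Among the erythroid classes, Myc, which encodes a transcription factor known to drive ribosome biogenesis genes, was most often detected in low-globin cells. It was detected in 5 of 6 low-globin cells, with a lowest, median and highest level of 0, 30.7 and 93.8 RPKM, in 0 of 11 mid-globin cells and in 1 of 37 globin-rich cells. Mycn was listed at 0 in all of them. Max, the partner of Myc, was detected in 0, 3 and 1 of these cells, and Mxd1, which competes with Myc for Max, in 1, 5 and 12. The low-globin minus globin-rich difference of Myc was 3.86, at percentile 76.9 of all measured genes. Myc was also detected in 5 of 10 other-lineage cells, with a median of 17.3 RPKM. In the low cells without Klf1 or Gata1 it was detected in 3 of 5, with a median of 66.8 RPKM. Detection of these regulators was sparse, and a relation to the members was not tested.

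Rpl11, the gene of the genotype, had mean log2 levels of 9.21 ± 0.60, 8.27 ± 0.44 and 3.01 ± 3.09 in low-globin, mid-globin and globin-rich cells, and Rpl5, its partner, 9.22 ± 0.43, 7.84 ± 0.68 and 2.81 ± 2.72. Neither checks the genotype, since no wild-type cell was at hand and reads from the lox allele cannot be told apart here.

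Among the 99 other biogenesis genes, 77 were higher by at least 1 in low-globin than in globin-rich cells and 0 lower. Of the 76 that were measured genes, 70 were higher, beside 72.4% of all measured genes. The largest differences were those of Exosc7 (7.19), Polr2f (6.52), Noc4l (6.26), Znhit3 (6.25) and Exosc3 (6.17). Exosc7 and Exosc3 belong to the exosome that trims ribosomal RNA, Polr2f is shared by the nuclear RNA polymerases, Noc4l is a factor of the small subunit and Znhit3 takes part in box C/D snoRNP assembly. Between low-globin and mid-globin cells 62 of the 99 were higher by at least 1 and 1 lower. Of the 76 measured ones, 57 were higher, beside 44.1% of all measured genes.

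The biogenesis transcripts were not particular to the erythroid cells. In the 10 other-lineage cells a lowest, median and highest count of 6, 18 and 29 members was detected, and the member mean was 3.45 ± 1.58, with values from 1.22 to 5.22 that overlapped the low-globin cells. Low-globin erythroid minus other-lineage cells gave a median of 1.09 over the members and 0.76 over all measured genes. By at least 1, 17 of 31 members were higher in low-globin cells and 1 lower. Among the 25 measured members these counts were 16 and 0, beside 43.5% and 12.3% of all measured genes. The excess was not tested. The largest differences were Dkc1 (3.63), Mrto4 (3.34), Fbl (2.59), Nop58 (2.56) and Nop56 (2.45), and Polr1a was the member lower in low-globin cells, by 1.16. Mpp1, which overlaps Dkc1, had medians of 66.7 RPKM in low-globin cells and 0 RPKM in other-lineage cells. Idh3b, which overlaps Nop56, had medians of 149 and 70.5 RPKM. The part of shared reads in the Dkc1 and Nop56 differences was not tested. Nop10 and Npm1 were detected in 10 of 10 other-lineage cells, with medians of 511 and 433 RPKM.

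The non-erythroid cells differed among themselves, and they were split by Mpo, the gene for myeloperoxidase of immature granulocytes. The 5 cells with little globin and without Klf1 or Gata1 detected 14 to 27 members, and the following counts take them together with the 10 other-lineage cells. In the 9 of these 15 cells with Mpo at 1000 RPKM or more, 10, 25 and 29 members were detected at the lowest, median and highest, with a member mean of 4.33 ± 1.00. In the other 6 the counts were 6, 12 and 18, with a mean of 2.30 ± 0.92. The median number of genes detected was 4900 with Mpo at that level and 3158 without. The cells with less Mpo were of mixed kinds. Cell 33 met the monocyte or macrophage list, cell 54 the mast cell or basophil list and cell 56 the T or NK cell list. Cell 56 had an estimated depth of only 184 in units of 1000 reads, where 3 reads on 1 kilobase equal 16.3 RPKM. The part of cell type and depth in the split was not tested. Against the 7 other-lineage cells with Mpo at that level alone, the low-globin erythroid cells gave a median of 0.42 over the members and 0.42 over all measured genes, with 9 of 31 members higher by at least 1 and 4 lower, beside 35.1% of all measured genes higher. That count takes all 31 members, of which 25 were measured genes, and no excess over the background was shown.

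Read sharing could touch further members. In RefSeq 8 of the 31 members overlap another protein-coding gene, and SMART-Seq libraries do not mark the strand. Besides Nop56 and Dkc1, these are Polr1e, Bop1, Wdr12, Gnl3, Nhp2 and Ebna1bp2. The neighbours Carf of Wdr12 and Cfap57 of Ebna1bp2 were listed at 0 in every erythroid cell. Rmnd5b, the neighbour of Nhp2, had medians of 19.7, 0 and 0 RPKM, against 395, 56.1 and 0 RPKM for Nhp2. With non-coding genes and pseudogenes included, 13 of the 31 members overlap another gene. Among them is Polr1d, which overlaps the pseudogene Rps10-ps4. The part of shared reads in its values was not tested.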

How the data were processed

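Single-cell RNA-seq of 96 marrow cells was analysed. The authors deposited RPKM values for 34899 transcript rows. Per the submitters' processing notes, TopHat2 2.0.9 and mm9 were used, and any other step is not given in the sources used here. A symbol took its highest row in each cell, and differences were taken on log2(RPKM + 1), a scale that understates them for low genes. Cells were kept at 1000 or more genes at 1 RPKM. Cells with at least 3, and at least 50%, of the markers of 1 of 7 non-erythroid lists at 10 RPKM were set apart, and no doublet caller was run.

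The members and lists were chosen with earlier results of these data known. The design set a class of 10000 to 100000 RPKM of Hba-a1, which held 4 cells, under the minimum of 5, so the low-globin erythroid class and its comparisons were chosen after values were seen. Every member is named, with full values for the 5 largest differences of a comparison. The 5 other biogenesis genes with the largest low-globin minus globin-rich difference, the 5 genes most like the member mean, and Rpl11, Hba-a1, Mpo and Myc are named too. Other genes were named after their values were seen.

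Depth was estimated per cell from steps between low RPKM values and transcript lengths, and could be off by a constant factor, since a unit may be a read or a pair. Intervals are exact Clopper-Pearson at 95%. They, and floors of 3 reads or cells, cover counting error only, as amplified reads are not independent molecules. With 1 sample no test was run. The depth estimate and a difference of class means were tried on simulated data. For the difference these were normal draws with a smaller SD than observed and without the many zeros of these cells. They do not show how it behaves on sparse values. Promoters and gene overlaps are from RefSeq GRCm38.p6, a build other than that of the deposited values, and were used by symbol only. Python 3.11.15, numpy 2.4.6, pandas 2.3.3 and scipy 1.17.1 were used. Alternatives were other pseudocounts, scalings, transcript rows, filters, gene minimums, Hba-a1 limits, description codes, cell sets, call sizes and Ward clusters.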

Additional observations from a re-analysis of the deposited data

Results flagged for a closer look

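Members were also listed in cells that entered no comparison, the 27 with fewer than 1000 genes detected. Their median depth, where it could be estimated, was 210 in units of 1000 reads, so a single read can pass 1 RPKM. Of these cells, 23 listed at least 1 of the 31 biogenesis transcripts at 1 RPKM or more, and 15 listed Nip7. The median was 2 per cell, and 1 cell listed 11. That cell, number 45, had Hba-a1 at 682 RPKM, Gata1 at 1918 RPKM, Myc at 1227 RPKM and Rpl11 at 3268 RPKM. It listed Klf1, Mpo and Npm1 at 0, while Ncl was detected. Within the 3 classes of 4 to 10 cells, no cell stood far from the rest in its member mean.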

How the results depend on the processing

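Values depended on the pseudocount, as mean log2 values of sparse genes do. With 0.1 the median over the members was 2.56 for mid-globin minus globin-rich, 6.68 for low-globin minus globin-rich and 3.69 for low-globin minus mid-globin cells. With 10 it was 0.56, 2.14 and 1.24. The count of members higher by at least 1 was then 11 for the first and 7 for low-globin minus other-lineage cells. All measured genes gave 26.4% and 22.1%, so the second, taken over all 31 members, showed no excess over the background. Hba-a1 limits of 5000, 50000 and 250000 RPKM moved the first to 2.28, and joining low-globin with mid-globin cells to 2.89. Ward clusters stood for other cells (21, 12 and 26, with median Hba-a1 of 76269, 355343 and 470888 RPKM). They gave 0.32 with 6 members higher for the first comparison, below the 0.50 and 31.3% of all measured genes. They gave 3.00 for low-globin minus globin-rich cells, and 2.37 for low-globin minus mid-globin cells beside 1.95 for the ribosomal protein genes. Against other-lineage cells they gave -0.054 with 4 members higher and 7 lower, beside 0.21 and 26.2% higher of all measured genes. In that comparison Nolc1 (-0.047), Wdr12 (-0.96), Gnl3 (-0.95) and Nhp2 (-0.78) reversed, as did Fbl (-0.011) in the first comparison. Against other-lineage cells, 8 members were higher by at least 2, beside 23.0% of all measured genes, and 9 by at least 1 with Mpo-rich cells only, where Gnl3 (-0.39), Nhp2 (-0.24) and Eif6 (-0.17) reversed. Gar1 reversed for low-globin minus globin-rich cells under 1 of the codes in the sample descriptions (-0.11). The cause was not tested in any of these.

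The number of members found in 50% or more of the cells was 6, and it was 3 with detection at 10 RPKM and 1 with all 96 cells. With no gene filter, the share of all symbols higher by at least 1 was 13.2%, 20.9%, 13.3% and 12.3% for mid-globin minus globin-rich, low-globin minus globin-rich, low-globin minus mid-globin and low-globin minus other-lineage cells. With Hba-a1 limits of 20000, 150000 and 350000 RPKM the class set in the design held 6 cells, and its median over the members was 3.74 above globin-rich, 2.09 above mid-globin and 0.40 above other-lineage cells. The other alternatives listed for that class were not run, since it held 4 cells at the main limits. No paired analysis was possible because all cells have 1 group label.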
